A study of Mus musculus with 2 samples.

Results

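The troponin and tropomyosin genes of the thin filament were examined in cells sorted from the embryonic mouse sinoatrial node, the pacemaker tissue of the heart. The set holds 10 listed genes, taken by symbol from the deposited table of 12557 genes: Tnni1, Tnni2, Tnni3, Tnnt1, Tnnt2, Tnnt3, Tnnc1, Tnnc2, Tpm1 and Tpm2. Of these 9 had a value, and Tnnc2, the fast skeletal troponin C gene, was not measured.

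In 2 libraries, 1 per genotype, messenger RNA was sequenced from ICR embryos. The mutant library came from pooled Hcn4-CreERT2; Isl1f/f; Rosa-tdTomato nodes and the control library from pooled Hcn4-CreERT2; Isl1+/+; Rosa-tdTomato nodes. The controls thus carried the same inducible recombinase and red reporter and also received tamoxifen, given at E10.5. Nodes were collected 36 hours afterwards, between E12 and E12.5, CD31 beads took out endothelial cells, and reporter-positive cells were sorted. The number of embryos in a pool was not stated. Recombination and sorting both depend on the Hcn4 promoter, so the sorted cells are those with past recombinase activity. Since each genotype was sequenced once, values carry no replicate error and were not tested, and the genotype and the pool cannot be told apart. Where the text speaks of control or mutant cells, it means these single libraries, of 110117186 control and 119018888 mutant reads.

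Contraction of striated muscle is switched on and off at the thin filament. Tropomyosin lies along actin and covers the sites to which myosin binds. Troponin T anchors the troponin complex to tropomyosin, troponin I holds the filament in the off state, and troponin C binds calcium and releases that inhibition. Cardiac, slow skeletal and fast skeletal muscle each have their own troponin I and troponin T genes, while 1 gene, Tnnc1, serves as troponin C in both cardiac and slow muscle. The embryonic heart is known to use the slow skeletal troponin I, from Tnni1, before the cardiac form from Tnni3 replaces it around and after birth.

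Isoform genes of 1 family are related in sequence, so the first check was whether reads could be assigned to the right isoform. Coding sequences of 1 principal transcript per gene, from GENCODE release M21, were aligned. The 3 troponin I genes shared between 68.5% and 70.5% of aligned coding bases and the 3 troponin T genes between 69.6% and 71.04%. The most alike stretches of 60 bases are shown because they are where a read would be hardest to assign. Capitals mark positions at which the 3 sequences are not all the same. For troponin I, 43 of 60 bases were identical in all 3 genes.
Tnni1: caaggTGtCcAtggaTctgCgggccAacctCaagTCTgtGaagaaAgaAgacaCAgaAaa
Tnni2: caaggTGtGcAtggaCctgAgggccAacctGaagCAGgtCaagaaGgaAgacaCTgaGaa
Tnni3: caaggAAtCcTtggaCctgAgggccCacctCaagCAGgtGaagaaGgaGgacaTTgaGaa
For troponin T, 42 of 60 bases were identical in all 3 genes.
Tnnt1: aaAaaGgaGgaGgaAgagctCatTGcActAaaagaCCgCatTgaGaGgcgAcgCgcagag
Tnnt2: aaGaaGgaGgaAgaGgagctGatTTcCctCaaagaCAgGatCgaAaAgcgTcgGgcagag
Tnnt3: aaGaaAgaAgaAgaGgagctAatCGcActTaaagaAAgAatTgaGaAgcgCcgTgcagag
The longest run shared without a mismatch between 2 troponin genes of a family was 22 bases, between Tnni1 and Tnni2, and 37 bases were shared between Tpm1 and Tpm2. Of all stretches of 90 bases, the read length, in the annotated transcripts of the 9 genes, 0 occurred in a transcript of another gene symbol. Both strands were compared, and the check covers spliced transcripts of that annotation only.

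Expression levels are given in RPKM, read numbers divided by the length of the exons counted and by the total of the library. Every gene of the table reached at least 1.0008 RPKM in 1 of the libraries. Whether listed genes without a row, such as Tnnc2, lie below such a level was not tested. Forms of the embryonic heart led the set in both libraries. Tnnt2, the cardiac troponin T gene (chromosome 1, 137732931 to 137748837, mm9), reached 2535 RPKM in control cells and 3109 RPKM in mutant cells. It ranked 6 of 12557 genes in each. Tpm1, the alpha-tropomyosin gene (chromosome 9, 66870397 to 66897213), followed at 1633 and 2274 RPKM, and Tnni1 (chromosome 1, 137676011 to 137707566) at 1234 and 1717 RPKM. These 3 genes were among the 20 most abundant of the table, with ranks from 6 to 19.

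The other cardiac genes lay about an order of magnitude lower. Tnnc1 (chromosome 14, 32021498 to 32024915), the cardiac and slow muscle troponin C gene, reached 298 RPKM in control cells and 385 RPKM in mutant cells. Tnni3, the cardiac troponin I gene (chromosome 7, 4469907 to 4475831), stood at 244 and 282 RPKM. Tnnt1, the slow skeletal troponin T gene (chromosome 7, 4456172 to 4467984), stood at 84.5 and 74.7 RPKM, and Tpm2, the beta-tropomyosin gene (chromosome 4, 43527583 to 43536637), at 68.01 and 86.1 RPKM. By the deposited values Tnnt1 stood above Tpm2 in control cells and below it in mutant cells, and the order of the other 7 genes was the same in both. With the smallest fitting reads divided by the length of 1 principal transcript, Tpm2 stood above Tnnt1 in both libraries. Tnni3 (620 in control and 716 in mutant cells) then also stood above Tnnc1 (276 and 357), the reverse of the deposited order. The true reads of each gene can be a multiple of the smallest fitting ones, so neither order is settled.

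The fast skeletal genes had the lowest levels of the set. Tnnt3, the fast skeletal troponin T gene (chromosome 7, 149684741 to 149701914), reached 7.16 RPKM in control cells and 25.2 RPKM in mutant cells. Tnni2, the fast skeletal troponin I gene (chromosome 7, 149627713 to 149630315), stood at 2.47 and 11.3 RPKM. The mutant value was the higher one for both, and both stayed below every cardiac and slow isoform in each library.

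**Figure D1:**
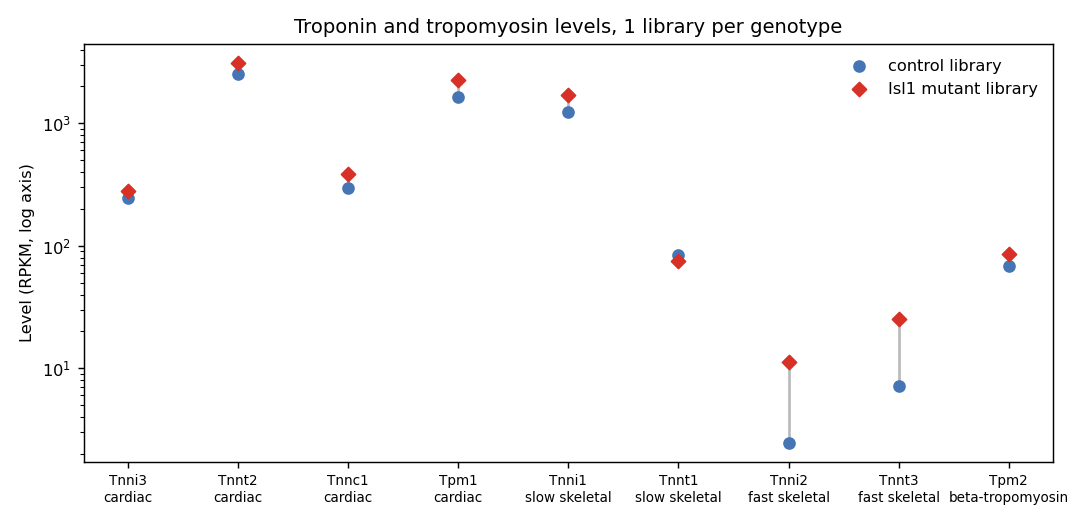
Level of each measured gene (RPKM, log axis) in the control (circles) and Isl1 mutant (diamonds) library, 1 library per genotype, grouped by isoform class. Tnnt2, Tpm1 and Tnni1 stand highest in both libraries, from 1234 RPKM upward, and the widest gaps between libraries are those of Tnni2 (2.47 and 11.3 RPKM) and Tnnt3 (7.16 and 25.2 RPKM).

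The question of the study was how loss of Isl1 alters gene expression in the node, and the isoforms were compared between the libraries by class. Isl1, a LIM-homeodomain transcription factor gene, reached 7.65 RPKM in control cells and 1.52 RPKM in mutant cells, in the direction of the labels. A gene was called higher or lower when log2((mutant RPKM + 1)/(control RPKM + 1)) reached 1 in size and the gene reached 5 RPKM in at least 1 library. By this rule 2 of the 9 measured genes were called higher, Tnni2 and Tnnt3, and 0 were called lower. Over the whole table the rule called 1.00% of 6372 genes higher and 2.73% lower. Tnni2 passed the level of 5 RPKM through the mutant library alone. Without the size limit, 8 of the 9 genes had the higher value in mutant cells, as did 38.1% of the 6372 genes.

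Both measured fast skeletal genes were several-fold higher in mutant cells. Tnni2 was 4.57-fold higher (95% interval 3.89 to 5.40, from at least 180 control and 890 mutant reads). Tnnt3 was 3.52-fold higher (3.28 to 3.78, from at least 1013 and 3854 reads). On the log2 scale with 1 RPKM added, the differences were 1.83 and 1.68. Intervals are exact (Clopper-Pearson) and cover the counting of reads alone, as PCR copies are not separate molecules. Of 4585 other genes whose level, the geometric mean of both libraries, was within 2-fold of that of Tnni2, 2 had as high a log2 difference. For Tnnt3 it was 3 of 3401. The medians over these genes of like level were -0.19 and -0.10.

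The 4 genes of the cardiac class were each higher in mutant cells by less than 1.4-fold, short of the size rule. Tpm1 was put in this class as a whole gene, and its value does not separate the products of that gene. Tpm1 was 1.392-fold higher (1.389 to 1.395), Tnnc1 1.291-fold (1.269 to 1.314), Tnnt2 1.226-fold (1.224 to 1.229) and Tnni3 1.155-fold (1.143 to 1.167). Their median log2 difference was 0.33, beside -0.10 over the 6372 genes. Across the table, higher values went with higher levels. The median log2 difference was 0.25 over the 52 genes at 500 RPKM or more and 0.05 over the 257 genes between 100 and 500 RPKM. Tnnt2 at 0.29 was close to the median of its level range, and 6 of 12 genes of like level had as high a value. Tpm1 at 0.48 was above it, with 5 of 22 genes of like level as high.

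The 2 slow skeletal genes differed in direction. Tnni1 was 1.391-fold higher in mutant cells (1.385 to 1.398), within the range of the cardiac genes, and 9 of 30 genes of like level had as high a value. Tnnt1 was 1.131-fold lower (1.103 to 1.160) and the sole measured gene of the set with a lower value. Its log2 difference of -0.18 ranged from -0.20 to -0.05 over 5 other settings of pseudocount and scaling and stayed below 0 in each. The median over the 6372 genes was -0.10, and 147 of 705 genes of like level had as low a value as Tnnt1. Tpm2, which is made in skeletal and smooth muscle as well as in the heart and was put in no class, was 1.266-fold higher (1.247 to 1.285). The class medians were 1.75 (fast skeletal), 0.33 (cardiac) and 0.15 (slow skeletal).

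**Figure D2:**
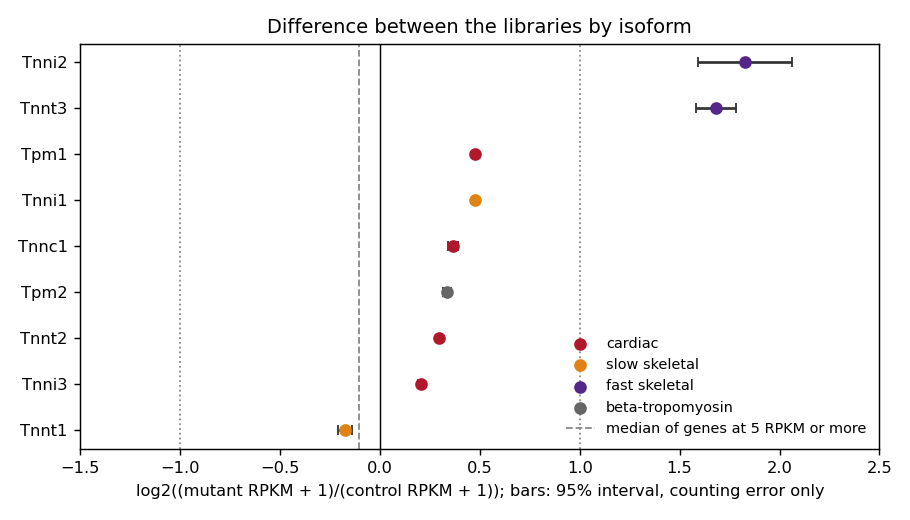
Difference between the libraries for each measured gene, as log2((mutant RPKM + 1)/(control RPKM + 1)), coloured by class, with 95% intervals for counting error only. The dotted lines mark 1 in size and the dashed line the median of -0.10 over genes at 5 RPKM or more. Tnni2 (1.83) and Tnnt3 (1.68) stand past the line and the other 7 genes lie between -0.18 and 0.48.

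Tnnc1 has 2 entries in the table that overlap. The longer entry (chromosome 14, 31983021 to 32024915) gave 287 RPKM in control cells and 368 RPKM in mutant cells, 1.281-fold higher, and the shorter one is used throughout. The kit does not mark strand, and the span of Tnnc1 lies within that of Nisch, a gene on the opposite strand at 52.3 and 37.6 RPKM. Their annotated spliced transcripts share no 90-base stretch, but reads of unspliced Nisch RNA there would not be told apart from those of Tnnc1. The spans of the other 8 genes overlap no other gene of the table.

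Shares within a family do not depend on how the libraries are scaled, but they do depend on the exon lengths used, and the shares given first rest on the deposited values. Tnni1 held 83.3% of the summed troponin I RPKM in control cells and 85.4% in mutant cells. Tnni3 held 16.5% and 14.04%. The ratio of Tnni1 to Tnni3 went from 5.05 to 6.08, a 1.20-fold difference (1.19 to 1.22, a Wald interval on reads for counting error). The fast form Tnni2 held 0.167% of troponin I in control cells (0.143% to 0.193%) and 0.561% in mutant cells (0.525% to 0.599%). Its share was 3.37-fold greater and still below 1% in both libraries.

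Troponin T was almost wholly of the cardiac form. Tnnt2 held 96.5% of the summed troponin T RPKM in control cells and 96.9% in mutant cells. Between the skeletal forms the mix differed more. Tnnt1 held 3.22% (3.16% to 3.27%) in control cells and 2.33% (2.29% to 2.37%) in mutant cells. Tnnt3 held 0.273% (0.256% to 0.290%) and 0.786% (0.762% to 0.811%). Tnnt1 stood at 11.8 times the level of Tnnt3 in control cells and at 2.96 times in mutant cells.

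Tpm1 held 96.003% of the sum of Tpm1 and Tpm2 in control cells and 96.4% in mutant cells. With Tpm3 and Tpm4 added, which supply cytoskeletal tropomyosins in many cell types and, for Tpm3, also the slow skeletal muscle form, the share of Tpm1 was 91.1% and 93.3%. Tpm3 stood at 38.1 and 27.7 RPKM, 1.38-fold lower in mutant cells, and Tpm4 at 52.5 and 50.8 RPKM. The Tpm4 ratio was 0.966. Its interval of 0.900 to 1.04 rests on the smallest fitting reads, 1533 and 1601 at an exon length of 265 bases. With a multiple of these reads the interval would be narrower and might not include 1. Tpm1 and Tpm2 were thus higher in mutant cells while Tpm3 was lower. Values per gene do not separate the products of 1 gene, such as the muscle and cytoskeletal products of Tpm3. This holds for Tpm1 as well.

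**Figure D3:**
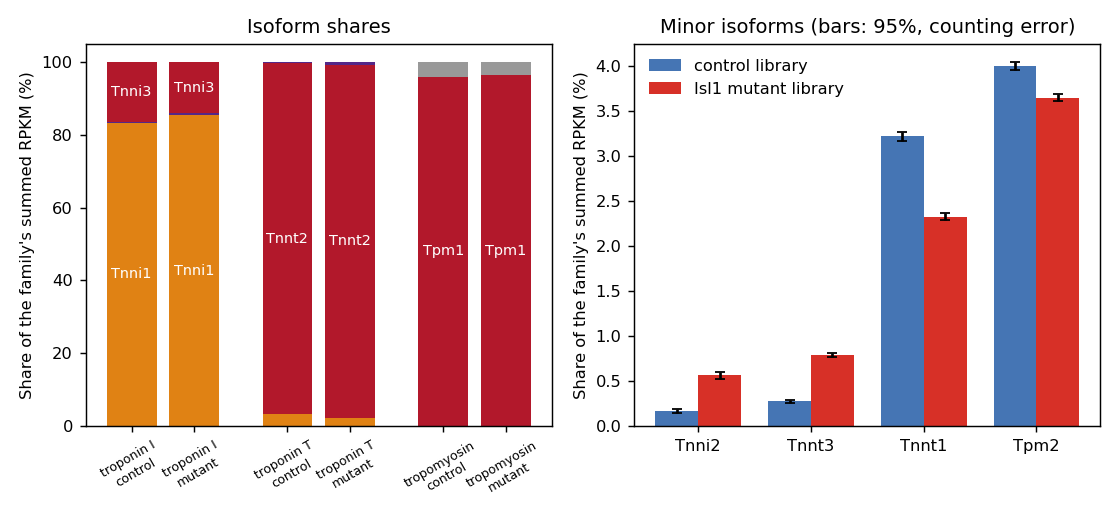
Share of each isoform in the summed RPKM of its family (%), for all isoforms of troponin I, troponin T and tropomyosin (left, stacked bars) and for the minor isoforms on their own scale (right, bars with 95% intervals for counting error). The shares of Tnni2 (0.167% and 0.561%) and Tnnt3 (0.273% and 0.786%) are greater in mutant cells and that of Tnnt1 (3.22% and 2.33%) is smaller.

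Summed over isoforms, troponin I reached 1481 RPKM in control cells and 2010.0 RPKM in mutant cells, 1.36-fold higher. Troponin T stood at 2626 and 3209 RPKM, 1.22-fold higher, and tropomyosin (Tpm1 and Tpm2) at 1701 and 2359.6 RPKM, 1.39-fold higher. Troponin C, from Tnnc1 alone, stood at 298 and 385 RPKM, 1.29-fold higher. The fast isoforms add little to these sums: Tnni2 and Tnnt3 together came to 9.63 RPKM in control cells and 36.5 RPKM in mutant cells.

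Levels between genes rest on the exon length the authors used, which whole reads and both values give only up to a whole factor. The smallest fitting length was taken. This length was 4881 bases for Tnnt2 and 9414 bases for Tpm1, 4.45 and 4.96 times the length of a principal transcript. For Tnni2, Tnnc1, Tnnt3 and Tnnt1 it was between 0.906 and 1.31 times that length. With reads divided by the principal transcript length, a choice made after seeing these lengths, Tnnt2 held 98.9% of troponin T in control cells and 99.1% in mutant cells. Tnni1 then held 79.95% and 82.6% of troponin I, and Tnni2 0.0720% and 0.244%. Tnnt1 held 0.974% and 0.703% of troponin T, and Tnnt3 0.0801% and 0.230%, so these minor shares were over 3 times smaller with the same direction between the libraries. These alternative shares take the smallest fitting reads as the true ones, and a multiple in 1 gene of a family would change them. Differences between the libraries in 1 gene do not depend on the length.

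The troponin I and troponin T genes lie in neighbouring pairs, a feature the choice of genes did not use. Tnni1 and Tnnt2 lie on chromosome 1 with 25364 bases between them, Tnni2 and Tnnt3 on chromosome 7 with 54425 bases between them, and Tnni3 and Tnnt1 on chromosome 7 with 1922 bases between them. The pairs therefore do not follow muscle type in general: a slow form neighbours a cardiac one in the first and the last, and only the fast genes lie together. Members of the first pair were 1.391-fold and 1.226-fold higher in mutant cells, those of the fast pair 4.57-fold and 3.52-fold higher. The third pair differed in direction, with Tnni3 1.155-fold higher and Tnnt1 1.131-fold lower.

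Genes beside the pairs did not all share the difference of the pair. Here a neighbour is the nearest protein-coding gene of the table, and genes without a row may lie closer. Lsp1, a gene of white blood cells that lies between Tnni2 and Tnnt3, reached 5.70 RPKM in control cells and 6.91 RPKM in mutant cells, 1.21-fold higher (1.16 to 1.27). Mrpl23, a mitochondrial ribosomal protein gene next to Tnnt3, was 1.23-fold higher (9.37 to 11.6 RPKM). Syt8, a synaptotagmin gene next to Tnni2, was listed at 0.108 and 1.18 RPKM. No whole reads were found that fit both values of Syt8, and no fold is given. Lad1, a gene of epithelial anchoring filaments between Tnni1 and Tnnt2, stood at 0.606 and 2.40 RPKM, 3.96-fold higher (2.93 to 5.43), below the level the size rule asks for. Its neighbours on the outer sides of this pair, Phlda3 and Tmem9, were 1.05-fold lower (0.884 to 1.24) and 1.06-fold higher. Next to Tnnt1, Ppp1r12c was 2.46-fold lower (2.62 to 1.07 RPKM), and next to Tnni3, Ppp6r1 was 1.51-fold lower (1.04 to 0.689 RPKM).

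**Figure D4:**
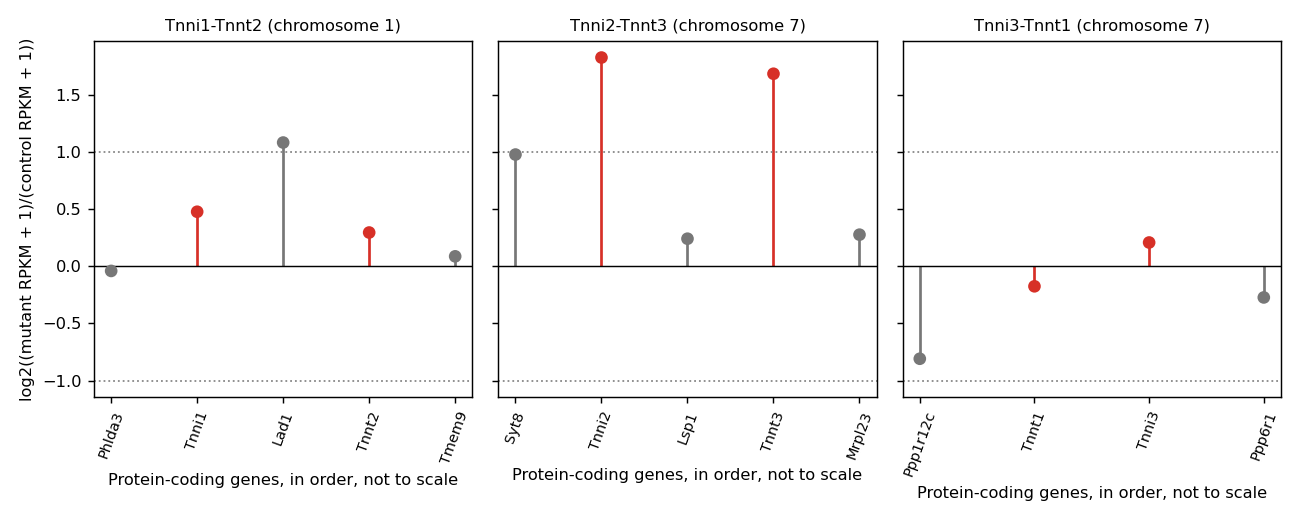
Difference between the libraries, as log2((mutant RPKM + 1)/(control RPKM + 1)), for the 3 troponin gene pairs (red) and the nearest protein-coding genes of the table (grey), in order along the chromosome and not to scale. Tnni2 (1.83) and Tnnt3 (1.68) stand above Lsp1 (0.24), which lies between them. Syt8, next to Tnni2, is at 0.98, and its reads could not be recovered.

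Promoter sequences from RefSeq (GRCm38.p6) were matched for 8 of the 10 listed genes, in 10 windows running from 250 bases before to 50 bases after a transcript start. Those of Tnni2 and Tnnt3 were not used here. The windows were searched on both strands for CATTCC (the MCAT element, which TEAD factors bind and which is known from the chicken cardiac troponin T promoter), CANNTG (the E-box), TATAAA and TAATTA (a homeodomain core). CATTCC was found in 3 of the 10 windows, those of Tnnt2, Tnnc1 and Tpm1, and in 14.6% of 32544 windows of all genes. These genes are of the cardiac class, but Tnni3, also of that class, was searched and did not hold it. CANNTG was found in all 10 windows and in 72.3% of all windows. TATAAA was found for Tnnt1 alone (13.6% of all windows), and TAATTA in 0 of the 10 (5.29% of all).

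The 100 bases before the start are shown for the cardiac genes with the motif whose stretch holds no annotated exon, with CATTCC or its reverse complement in capitals. In Tnnt2 (chr1:135836234-135836333, plus strand) the motif begins 27 bases before 1 of its starts, and in Tnnc1 (chr14:31208212-31208311, plus strand) it begins 58 bases before the start on the opposite strand.
Tnnt2: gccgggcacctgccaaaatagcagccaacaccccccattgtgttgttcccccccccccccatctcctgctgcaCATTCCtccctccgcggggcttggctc
Tnnc1: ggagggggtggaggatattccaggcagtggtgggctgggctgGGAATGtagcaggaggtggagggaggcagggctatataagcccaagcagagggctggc
A match describes these letters and is not a measured binding site.

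The rest of the thin filament was compared in a list of 20 actin, tropomodulin, leiomodin and related genes, of which 17 were measured. Of these 11 were higher and 6 lower in mutant cells, with a median log2 difference of 0.33, beside -0.18 over all 12557 genes. List genes were counted from 1 RPKM in at least 1 library, and those below 5 RPKM in both could not be called. Of the 6372 genes at 5 RPKM or more, 38.1% were higher. Beside 1.00% of these called higher and 2.73% called lower, the size rule called 2 list genes higher and 0 lower. The called genes were Acta1, the skeletal alpha-actin gene (161 to 672 RPKM, 4.17-fold higher), and Lmod3, which nucleates actin filaments in skeletal muscle (1.83 to 8.63 RPKM, 4.71-fold higher). With a pseudocount of 5 the log2 difference of Lmod3 was 0.997, short of the rule. Among genes that reach 5 RPKM, Tpm3 and Xirp1, a gene of the intercalated disc, had the lowest differences, 1.38-fold and 1.37-fold lower. Below that level Tmod2, a tropomodulin gene, was 2.27-fold lower (2.66 to 1.17 RPKM), and Lmod1, a leiomodin gene, was 3.21-fold higher (1.30 to 4.16 RPKM). Lmod3 was also the gene most like Tnni2 in pattern among 4451 protein-coding genes with a control level within 2-fold, at a distance of 0.06 in log2 difference over both libraries. It was followed by 4930583H14Rik and Lims2, a focal adhesion gene, at 0.19 and 0.34. For Tnnt1, the gene with the lowest value, D10Wsu52e, Srpk3 and Rai12 were the nearest of 650, at 0.000535 to 0.000736.

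Other genes of fast skeletal muscle were higher in part. Of 23 listed, 8 were measured, 6 of them higher and 2 lower, with a median log2 difference of 0.77, beside -0.18 over all 12557 genes. Of the 6372 genes at 5 RPKM or more, 38.1% were higher. List genes were again counted from 1 RPKM, and those below 5 RPKM in both libraries could not be called. Beside 1.00% of the 6372 genes called higher and 2.73% called lower, the size rule called 3 list genes higher and 0 lower. These were Ckm, the muscle creatine kinase gene (10.53 to 27.3 RPKM, 2.59-fold higher), Myl1, an alkali myosin light chain gene that the embryonic heart also expresses (168 to 370 RPKM, 2.21-fold higher), and Casq1, a calcium store protein gene (307 to 621 RPKM, 2.02-fold higher). Mylpf, the fast regulatory light chain gene, was 2.30-fold higher (2.89 to 6.63 RPKM) and fell short of the rule at a log2 difference of 0.97. It passed under 4 of 5 other settings (1.05 to 1.17), and Casq1 fell short with level and length bins removed (0.92). Atp2a1, the fast calcium pump gene, was 1.52-fold higher. Myog, a transcription factor gene that drives skeletal muscle differentiation, was 5.92-fold lower (2.39 to 0.404 RPKM, interval of the fold 4.59 to 7.74). The other lower gene was Myh8, a myosin heavy chain gene, 1.56-fold lower (2.74 to 1.76 RPKM, interval 1.37 to 1.77). Of 10 markers of skeletal muscle cells only Myog and Ckm were measured, with a sum of 12.9 RPKM in control cells and 27.7 RPKM in mutant cells. The higher sum is that of Ckm, as Myog was lower, and their median log2 difference was 0.01. Myod1, Myf5, Myf6, Mymk, Pax7, Chrna1, Cacna1s and Actn3 were not analysed here.

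Other genes of the cardiac and slow contractile apparatus, 12 listed and 12 measured, were mostly higher by small amounts. Of these 9 were higher and 3 lower, with a median log2 difference of 0.27, beside -0.18 over all 12557 genes. Of the 6372 genes at 5 RPKM or more, 38.1% were higher and 1.00% were called higher. The light chain genes Myl3 and Myl2 were called higher (2.39-fold, 73.1 to 175 RPKM, and 2.12-fold, 9.02 to 19.2 RPKM). With a pseudocount of 5, Myl2 was no longer called (0.79). Ryr2, the calcium release channel gene, and Ttn, the titin gene, had the lowest values, 1.55-fold and 1.20-fold lower.

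**Figure D5:**
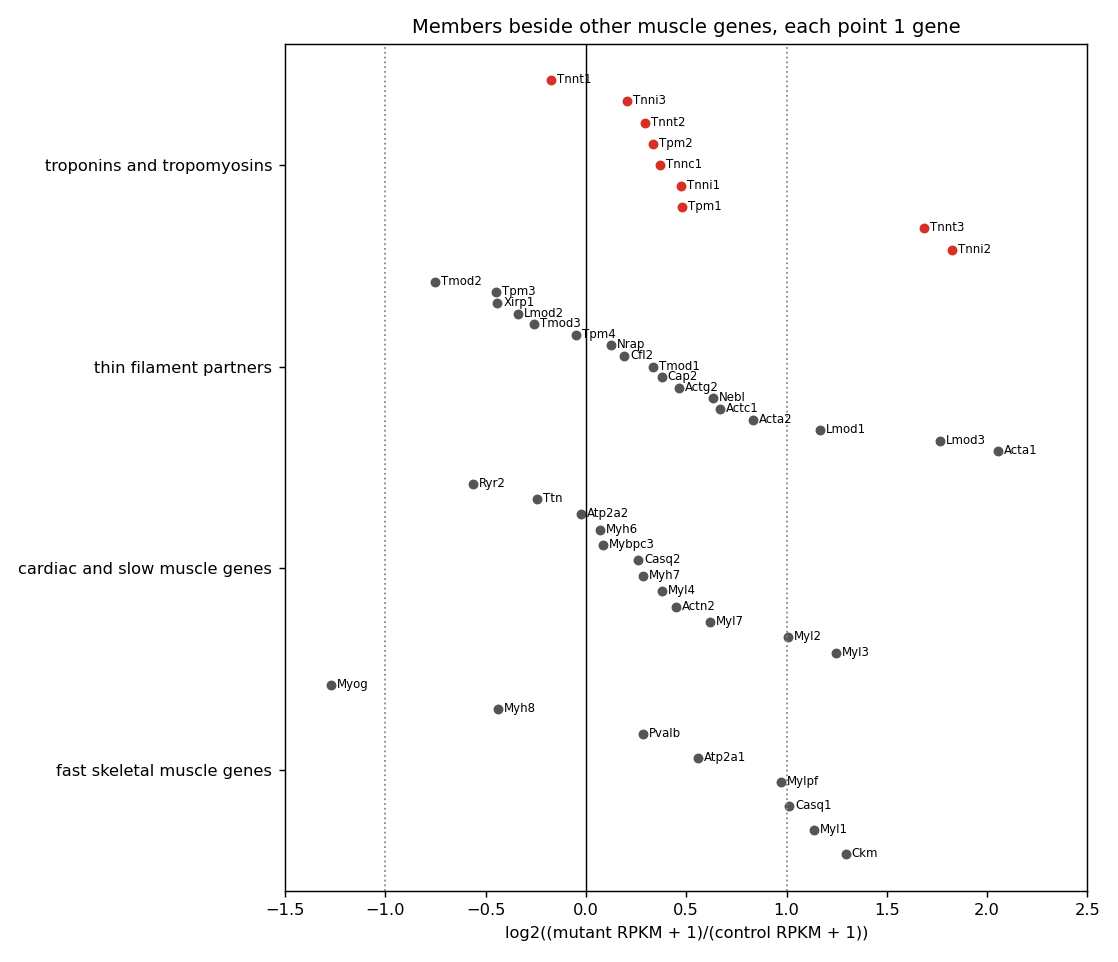
Difference between the libraries, as log2((mutant RPKM + 1)/(control RPKM + 1)), of the measured troponin and tropomyosin genes (red) and of 3 lists of other muscle genes (grey), each point 1 gene, with dotted lines at 1 in size. Tnni2 and Tnnt3 lie beside Lmod3 (1.77) and Acta1 (2.05), while Myog (-1.27) lies at the other end.

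Markers of cell types differed between the libraries in both directions. Of the 6372 genes at 5 RPKM or more, 38.1% were higher in mutant cells. Cardiomyocyte markers, 4 of 5 measured, summed to 4146 RPKM in control cells and 5406 RPKM in mutant cells, 1.30-fold higher. Of these 3 were higher and 1, Ttn, was lower, and most of the difference in the sum was that of Myl7, an atrial light chain gene (1960.2 to 3010.1 RPKM). The 6 smooth muscle markers, all measured and all higher, summed to 1228 and 1897 RPKM. The 5 node markers, which include Isl1, were all lower, from 39.1 to 18.0 RPKM in sum. Fibroblast and mesenchyme markers (7 of 7 lower) went from 419 to 197 RPKM, red cell markers (5 of 5 lower) from 283 to 45.2 RPKM and macrophage and white cell markers (5 of 5 lower) from 38.03 to 6.54 RPKM. Endothelial markers, 3 of 4 measured and all lower, went from 16.1 to 8.52 RPKM, and the 4 epicardial markers from 49.1 to 67.4 RPKM. Of the epicardial markers 2 were higher and 2 lower, with a median log2 difference of -0.04, and Krt19 alone (9.77 to 28.8 RPKM) exceeded the difference in the sum. No measured marker was listed at 0. The part of these markers in the troponin and tropomyosin differences was not tested, and in such pools fewer cells of a type and less RNA per cell cannot be told apart.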

How the data were processed

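Libraries were made with a SMARTer cDNA kit from 10 ng of total RNA and read in 90-base pairs, per the labels' protocols. The submitters' processing notes name Trim Galore, FastQC, TopHat2, Bowtie2 and mm9. How the gene values were computed is not stated in any source used, beyond the constitutive exons of the file headers. The deposited values are RPKM, a unit identified from their steps: for 284 small RNA genes, value times length was a whole read number within 0.01 in 284 (control) and 276 (mutant). The steps gave 110117186 control and 119018888 mutant reads. The authors' deposited log2 fold matches the log2 ratio of the RPKM values within 1.89e-07. Their deposited signed fold, a score, was not used.

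Reads per gene are the smallest whole numbers that fit both values and a whole exon length, and true numbers can be multiples. Where a symbol had more than 1 entry, the entry of highest mean level was taken. Intervals of folds are conditional Clopper-Pearson intervals, those of isoform ratios Wald intervals, and those of shares exact Poisson intervals of the isoform's own reads. The text names the measured members, Isl1, list genes called or among the 2 highest or lowest of their list (reaching 5 RPKM in either library), genes next to the troponin pairs and the 3 genes likest in pattern. Tpm4, Myog, Myh8, Tmod2, Lmod1, Myl7 and Krt19 fall outside this rule and were chosen after their values were seen. Members, classes and lists were chosen with earlier results of these data known. Alternatives were pseudocounts of 0.1 and 5, floors of 0 and 10 RPKM, a 1.5-fold threshold, 2 other scalings and removal of the medians of 10 level by 5 length bins. The scripts (Python 3.11.15, scipy 1.17.1, Biopython 1.88) were tested on simulated data.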

Additional observations from a re-analysis of the deposited data

How the results depend on the processing

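No paired analysis was possible because each genotype has 1 library, and for the same reason no library could be left out. The 2 genes called higher and the 0 called lower were the same numbers under all 8 alternatives of pseudocount, scaling, floor and threshold. No measured gene of the set changed sign under the 5 alternatives of pseudocount and scaling, and the log2 difference ran from 1.12 to 2.15 for Tnni2 and from 1.31 to 1.80 for Tnnt3. The fast skeletal median was 1.98 with a pseudocount of 0.1 and 1.22 with one of 5. Centring subtracted the median of genes with both values at 5 RPKM or more, which was -0.07. The class medians were then 0.40 (cardiac) and 0.22 (slow skeletal). The list medians were 0.41 (thin filament partners) and 0.34 (cardiac and slow muscle genes). Scaling to the same upper quartile added 0.12 to the log2 ratio, and the class medians were 0.45 (cardiac) and 0.27 (slow skeletal). With level and length bins removed the cardiac median was 0.28. With Tnnc1 in the slow class the medians were 0.29 (cardiac) and 0.37 (slow), and with Tnni1 in the cardiac class 0.37 (cardiac) and -0.18 (slow, Tnnt1 alone). The cause of these shifts was not tested. At a floor of 5 RPKM the medians were 0.36 (thin filament partners) and 1.01 (fast skeletal muscle genes, 0.77 at the floor of 1 RPKM). In percentage points, mutant minus control, the share differences as deposited were 2.07 (Tnni1), 0.395 (Tnni2), 0.376 (Tnnt2), 0.513 (Tnnt3) and 0.349 (Tpm1). On reads not divided by length they were 2.31, 0.114, 0.116, 0.138 and 0.150. On reads divided by 1 principal transcript length, chosen after seeing the data, they were 2.67, 0.173, 0.121, 0.150 and 0.136, and with Tpm3 and Tpm4 added Tpm1 gave 2.10. Both sets based on reads take the smallest fitting reads as the true ones, and a multiple in 1 gene would change their size. All kept their sign. The widest relative interval of a member is that of Tnni2, with at least 180 control reads.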
